A study of Mus musculus with 2254 samples.

Results

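The cells described here met a rule for brain fibroblasts with at least as much transcript of Slc6a13 as of Lum. Slc6a13 encodes a plasma membrane transporter of GABA and taurine (GAT2), and Lum the collagen-binding proteoglycan lumican. Fibroblast is the name given by the rule, and 21 of the cells go against it, as described below. The cells were picked from the deposited counts by level in CPM, among cells with at least 50000 counts. CPM is a gene's count over the cell's total count times 1000000. The summed CPM of Dcn, Col1a1, Lum and Slc6a13 had to reach 500, with Myh11 below 500 CPM, Cldn5 plus Pecam1 below 200 CPM, Ccdc153 plus Tmem212 below 50 CPM and Aqp4 below 100 CPM, and Lum could not exceed Slc6a13. The rule found 110 of 2254 cells, 76 on plates labelled Notch3 KO and 34 on plates labelled Notch3 WT. Another 82 cells met the same thresholds with Lum above Slc6a13 and are called Lum-dominant fibroblasts. Because Slc6a13, Lum, Dcn, Col1a1 and the genes with an upper limit chose the cells, their levels are given as a description.

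All cells came from the brains of adult C57BL/6 mice carrying SM22-Cre and Rosa26-stop-tdTomato. In such mice the promoter of Tagln (SM22), a smooth muscle gene, drives the Cre recombinase that switches on a red fluorescent reporter. The groups differed by label only in Notch3 status, KO or WT, and both carried the Cre and the reporter alleles. Cells were sorted by fluorescence into 384-well plates and sequenced by Smart-seq2, which reads full-length polyadenylated cDNA. The gates of the sort were not described, and the table has no row for tdTomato. Plates 043, 467 and 471 held the KO cells, and plates 044, 468 and 469 the WT cells. The labels name no animal, so each genotype counts as 1 sample, no test between genotypes was possible, and the SD over plates is a description only.

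Fibroblasts of the brain lie in the meninges and around larger vessels, where they make collagens and other matrix proteins. Those of the arachnoid and pia are known for transporters of GABA, organic anions and sulphate, for the retinoic acid-making enzyme Aldh1a2 and for insulin-like growth factor 2. Retinoic acid from meningeal fibroblasts acts on the developing cortex and its vessels. Notch3 is a receptor known mainly from vascular smooth muscle cells and pericytes, the mural cells of small vessels.

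The label rests on 5 markers, and 4 of them had no part in the choice of cells: Slc22a6 (the organic anion transporter OAT1), Slc13a4 (a sodium-sulphate cotransporter), Aldh1a2 and Igf2. Of the 110 cells, 75 had all 4 of these at 50 CPM or more and 13 had 3 of them. Another 20 had 0 of the 4. Nearly all of the latter had met the rule without its namesake, since 19 of the 110 cells had 0 counts of both Slc6a13 and Lum and so met the condition that Lum not exceed Slc6a13. The 89 cells with at least 2 of the 4 markers are called marker-bearing below and the other 21 marker-poor. This split was made after the values were seen. It stands beside each result, because the marker-poor cells go against the label. The markers were not particular to the members: of the 82 Lum-dominant cells, 42 had all 4 and 66 had at least 2. Among the 2060 cells with enough counts that met neither rule, 5 had at least 2 of the 4 markers.

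The marker-poor cells were not of 1 kind, and they get no cell type name here. The 11 from KO plates had Rgs5, a regulator of G-protein signalling and a pericyte marker, at 4362 to 12007 CPM per cell. The 10 from WT plates had Rgs5 at 9.68 CPM or less. Those WT cells instead had Slc47a1, a transporter that exports organic cations, at 747 to 3156 CPM. Slc4a10, a bicarbonate transporter, was at 1428 CPM in the summed counts of the 10 WT cells and Emb, the membrane protein embigin, at 1243 CPM. The pericyte genes Kcnj8 (1664 CPM) and Abcc9 (657 CPM), which form a potassium channel, were present in the 11 KO cells. KO plates 043, 467 and 471 held 7, 4 and 0 of the marker-poor cells, and WT plates 044, 468 and 469 held 1, 5 and 4. The 0 of 378 cells on plate 471 allows a share of up to 0.794% by a floor of 3 cells, and the exact 95% interval reaches 0.971%.

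For each of the 4 markers that RefSeq lists with 1 start, the promoter sequence is shown. It is given as the 250 bases before that start on build GRCm38.p6, 5′ to 3′ on the gene's strand. Capitals mark matches to 5 motifs searched on both strands. These were the nuclear receptor half-site AGGTCA, the forkhead core GTAAACA, the GC box GGGCGG, the TATA box TATAAA and the CCAAT box CCAAT, the last one added after the sequences had been seen. Slc6a13 and Igf2 have several listed starts and are not shown. The windows are Slc22a6 at chr19:8617746-8617995 on the plus strand, Slc13a4 at chr6:35308127-35308376 on the minus strand and Aldh1a2 at chr9:71215539-71215788 on the plus strand.
Slc22a6: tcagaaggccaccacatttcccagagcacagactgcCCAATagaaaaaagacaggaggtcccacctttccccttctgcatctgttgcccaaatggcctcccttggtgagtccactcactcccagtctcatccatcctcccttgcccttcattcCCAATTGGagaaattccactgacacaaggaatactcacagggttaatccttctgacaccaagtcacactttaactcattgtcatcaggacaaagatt
Slc13a4: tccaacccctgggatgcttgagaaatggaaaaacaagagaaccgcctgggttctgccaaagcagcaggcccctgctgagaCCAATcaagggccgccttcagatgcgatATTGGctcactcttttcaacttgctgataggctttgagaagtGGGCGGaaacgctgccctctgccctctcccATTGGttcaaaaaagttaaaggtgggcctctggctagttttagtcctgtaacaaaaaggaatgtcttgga
Aldh1a2: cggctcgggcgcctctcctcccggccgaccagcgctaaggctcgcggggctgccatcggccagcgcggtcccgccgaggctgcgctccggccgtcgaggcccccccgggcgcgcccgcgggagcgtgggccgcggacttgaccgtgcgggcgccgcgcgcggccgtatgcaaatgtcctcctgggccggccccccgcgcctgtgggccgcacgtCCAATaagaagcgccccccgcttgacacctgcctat
The CCAAT box was the motif found in all 3 windows: 3 times in Slc22a6, where 2 of the matches overlap on opposite strands, 3 times in Slc13a4 and 1 time in Aldh1a2. Of all 32851 windows of this length, 33.8% hold it. Slc13a4 also held 1 GC box, which 32.7% of windows hold. None of the 3 windows held AGGTCA (14.0% of all windows), GTAAACA (3.17%) or TATAAA (12.4%). The windows differed in composition. The Aldh1a2 window was 77.6% G or C with 40 CpG dinucleotides, against 48.4% and 0 CpG in Slc22a6, 50.4% and 5 in Slc13a4, and medians of 52.4% and 6 over all windows. The matches are descriptions of these letters, and no binding was measured.

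The members had 96164 to 763059 counts per cell, with a median of 299772 counts and 5615 detected genes. Median depth was close between genotypes in the marker-bearing cells, at 300350 counts and 5973 genes in KO and 297376 counts and 5180.5 genes in WT. No gene exceeded 4500 counts in any cell of the table, and 1.20% was the highest share of a member's counts in 1 gene. Whether the counts were capped or duplicate reads removed is not given in the sources used here. A median of 1.73% of a member's counts came from mitochondrially encoded genes. Notch3, the gene named in the labels (chr17:32120820-32166852, minus strand, overlapping Gm17276 on the other strand), was too low in these cells to check the labels. In all members it was at 20.7, 20.9 and 14.7 CPM on KO plates 043, 467 and 471 and at 3.3, 2.2 and 27.1 CPM on WT plates 044, 468 and 469. The cells outside both fibroblast kinds, KO and WT together, had it at 148 CPM. Marker-poor members held part of the KO reads, with up to 336 CPM per cell on plate 043 and 62.4 CPM on plate 467. Marker-bearing members of those plates had up to 3.46 and 126 CPM, and marker-poor WT cells up to 41.6 CPM. In marker-bearing members Notch3 had a read in 14 of 65 KO cells and in 6 of 24 WT cells, and 1 WT cell held 81.1% of the WT counts.

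**Figure D1:**
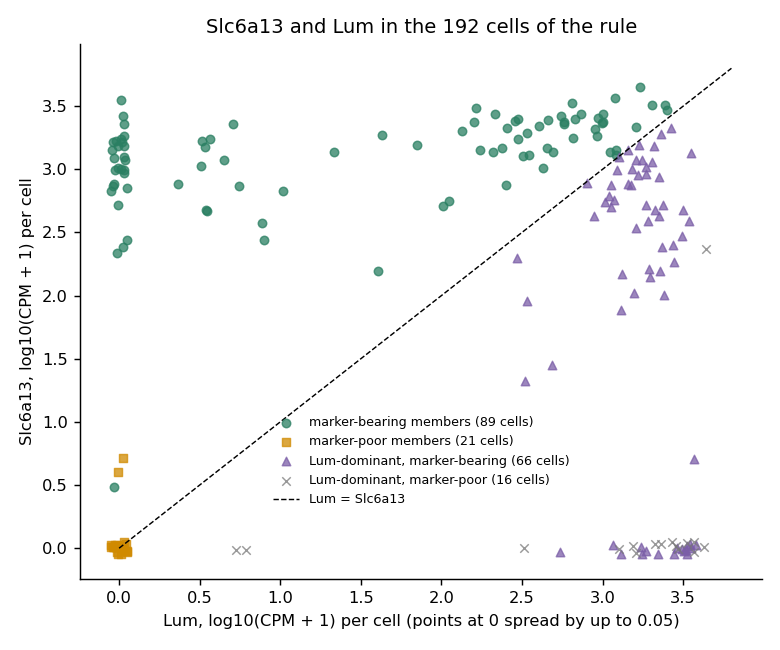
Lum level (x axis) against Slc6a13 level (y axis), both as log10(CPM + 1), in each of the 192 cells of the rule, with points at 0 spread slightly for display. Circles and squares are marker-bearing (89) and marker-poor (21) members, triangles and crosses are marker-bearing (66) and marker-poor (16) Lum-dominant cells, and the dashed line is equal level. The marker-poor members gather near 0 on both axes, whereas the marker-bearing members lie high on the Slc6a13 axis, 28 of them with Lum at 0.

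Slc6a13 (chr6:121300227-121337733, plus strand) was at 2.08 to 4468 CPM in the 89 marker-bearing cells, with a median of 1540 CPM, and 80 of them reached 500 CPM. The dividing line ran through a continuum. The members closest to it among marker-bearing cells had Slc6a13 at 1296 and Lum at 1212 CPM in 1 cell and 157 and 39.7 CPM in another, and 1 cell was a member with Slc6a13 at only 2.08 CPM and Lum at 0. The 3 Lum-dominant cells closest to the line had 784 against 796, 1254 against 1270, and 1415 against 1440 CPM of Slc6a13 against Lum. In the Lum-dominant cells Slc6a13 ran from 0 to 2108 CPM with a median of 152 CPM, and 44 of the 82 had it at 100 CPM or more. Many cells of both kinds thus carried both transcripts.

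The markers that the rule did not use were high in most marker-bearing cells and varied widely between them. Slc22a6 (chr19:8618039-8628299) was at 0 to 2884 CPM with a median of 722 CPM, and 80 of 89 cells had at least 100 CPM. Slc13a4 (chr6:35267957-35308131) was at 0 to 2979 CPM, median 1217 CPM, with 86 cells at 100 CPM or more. Aldh1a2 (chr9:71215789-71296243) was at 4.58 to 3553 CPM, median 1425 CPM, with 87 such cells. Igf2 (chr7:142650766-142666816), a secreted growth factor that acts through the IGF1 receptor, was at 3.33 to 8271 CPM, median 2514 CPM, with 88 such cells. Holding at least 2 of these markers is what defines a marker-bearing cell, so these shares are in part set by that choice. In the summed counts of the cells outside both fibroblast kinds, the same 4 genes were at 0.2, 9.6, 0.7 and 13.7 CPM, and Slc6a13 was at 3.4 CPM. The Lum-dominant cells shared these markers, with at least 2 of the 4 in 66 of 82 cells.

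**Figure D2:**
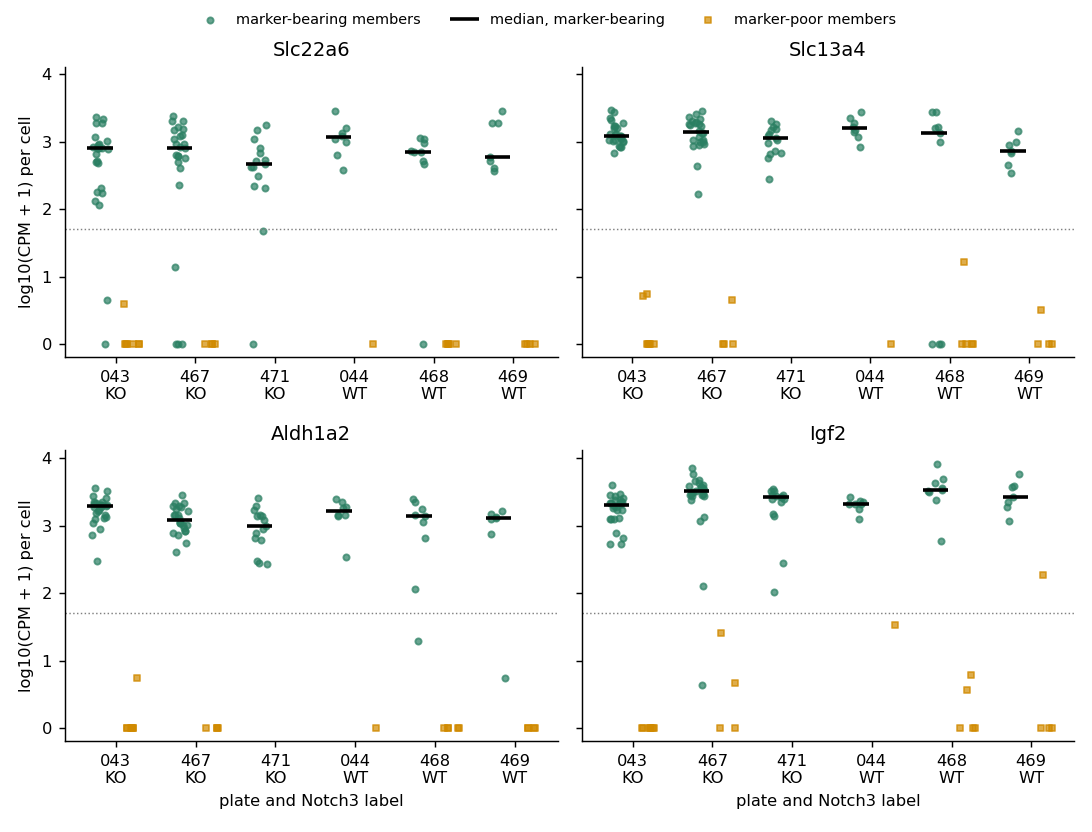
Level of Slc22a6, Slc13a4, Aldh1a2 and Igf2 in each member cell, as log10(CPM + 1), by plate and Notch3 label. Circles are marker-bearing members with their median as a bar, squares are marker-poor members, and the dotted line is at 50 CPM. Most circles lie far above the line on all 6 plates, and the medians of KO and WT plates overlap for each gene.

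Over plates, the summed level of each marker varied by a few fold at most. In marker-bearing cells, Slc6a13 was at 1666, 1606 and 1338 CPM on KO plates 043, 467 and 471 and at 1786, 2327 and 1172 CPM on WT plates 044, 468 and 469. The highest and the lowest of the 6 values were both WT. Slc22a6 was at 846, 894 and 600 CPM in KO and at 1234, 653 and 1026 CPM in WT. Slc13a4 was at 1572, 1412 and 1113 CPM in KO and at 1716, 1176 and 710 CPM in WT. Aldh1a2 was at 2006, 1329 and 1104 CPM in KO and at 1712, 1169 and 1143 CPM in WT. Igf2 was at 2105, 3113 and 2077 CPM in KO and at 2072, 3495 and 2560 CPM in WT. For all 5 markers the KO and WT plates overlapped.

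Across the 89 marker-bearing cells, Slc6a13 had a Spearman rho of 0.55 with Lum and 0.54 with Slc22a6. Its rho was 0.32 with Slc13a4, 0.26 with Aldh1a2 and 0.21 with Igf2. Slc13a4 and Aldh1a2 had a rho of 0.37. Tagln, the gene whose promoter drives the Cre, ran the other way, with a rho of -0.32 with Slc6a13 and -0.48 with Igf2. These are descriptions over cells that share plates and differ in depth, and no p is given. The rule kept Lum at or below Slc6a13, and 4 of the genes defined these cells, so the values are partly set by the choice of cells.

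Slc6a13 belongs to a family of sodium-dependent transporters, and its relatives were unequal in the marker-bearing cells. Per kilobase of exon, the level of Slc6a13 was 542 CPM. Slc6a20a, a transporter of proline and related imino acids, came next at 364 CPM per kb. Slc6a12 (BGT1, for betaine and GABA) was at 22.5 CPM per kb. The taurine transporter Slc6a6 was at 0.9 CPM per kb, and Slc6a11 (GAT3) was near 0. By the same measure Aldh1a2 was at 648, Igf2 at 421, Slc13a4 at 291 and Slc22a6 at 210 CPM per kb. Among the 15 genes with the most counts in the members, Vtn, the adhesive plasma protein vitronectin, was at 1395 CPM per kb, Ptgds, a prostaglandin D synthase known from the leptomeninges, at 1344, Apoe at 1262 and the small proteoglycan fibromodulin (Fmod) at 845 CPM per kb.

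The share of members among all cells was higher on each KO plate than on each WT plate. Members were 8.73% of cells on plate 043 (exact 95% interval 6.09 to 12.0), 7.57% on plate 467 (5.09 to 10.8) and 3.97% on plate 471 (2.24 to 6.46). On the WT plates they were 2.37% on plate 044 (1.09 to 4.46), 3.74% on plate 468 (2.06 to 6.20) and 2.95% on plate 469 (1.48 to 5.22). The means were 6.76% ± 2.48 in KO and 3.02% ± 0.687 in WT (SD, n = 3 plates), a difference of 3.73 points. The lowest KO plate and the highest WT plate had intervals that overlap almost wholly. Between plates 043 and 044, whose numbers stand apart from the other 4, the difference was 6.36 points, and among the other 4 plates it was 2.42 points.

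In marker-bearing members alone the KO plates had shares of 6.88%, 6.49% and 3.97% and the WT plates 2.11%, 2.41% and 1.88%, with means of 5.78% ± 1.58 and 2.13% ± 0.265 (SD, n = 3 plates). Lum-dominant fibroblasts were also a larger share on KO plates, at 5.93% ± 3.34 against 1.33% ± 0.458. The mix of the kinds did not separate the genotypes by plate. Members made up 47.1%, 66.7% and 48.4% of the fibroblasts of the rule on the KO plates and 60.0%, 82.4% and 64.7% on the WT plates, a difference of -15.0 points with overlapping plates. For marker-bearing members among the same fibroblasts it was -1.59 points, and with both kinds restricted to marker-bearing cells -25.4 points, so its size depended on which cells were counted. A cap of 500 CPM on the summed Acta2, Tagln and Rgs5, genes of mural cells, lowered the share difference to 1.60 points. Since the gates are not described and the reporter depends on the Tagln promoter, a difference in which cells were sorted and a difference in the brain cannot be told apart.

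**Figure D3:**
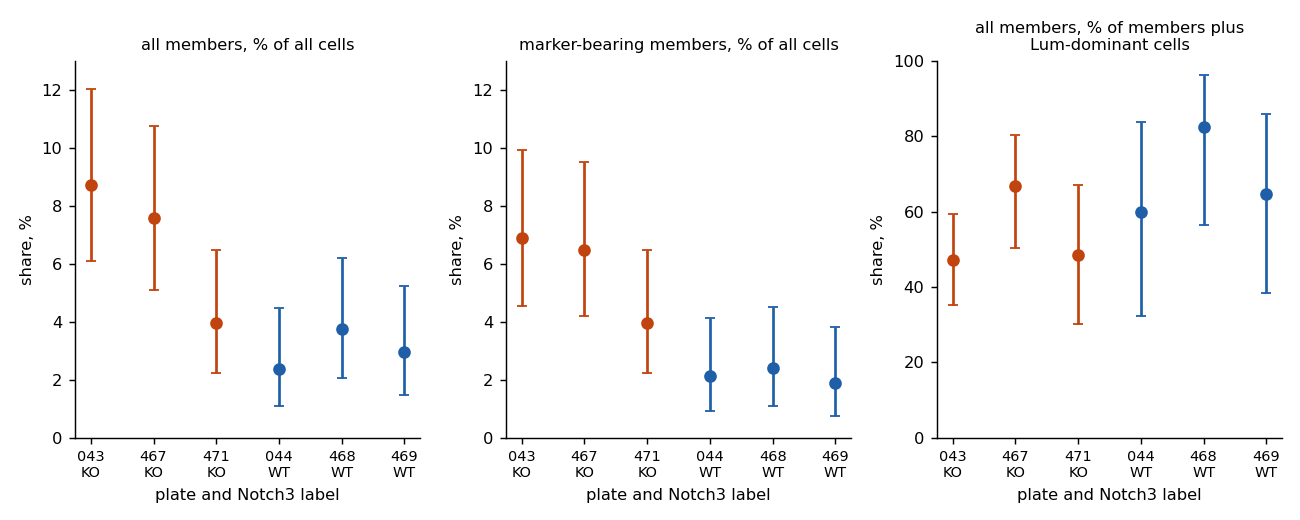
Share of all members (left) and marker-bearing members (middle) among all cells of each plate, and of all members among members plus Lum-dominant cells (right), in percent, with exact binomial 95% intervals as bars. Member shares are 3.97% to 8.73% on the 3 KO plates and 2.37% to 3.74% on the 3 WT plates, while in the right panel KO and WT plates overlap.

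The question of how the members differ from the Lum-dominant fibroblasts was addressed by summing counts per plate and kind, and taking the difference in log2(CPM + 1) within each plate. A gene met the size rule with a mean difference of at least 2-fold in the same direction on every plate. Against the Lum-dominant cells, 317 of 9560 genes were higher in all members by this rule (3.32%) and 141 were lower (1.47%), together 4.79%. For marker-bearing members the counts were 366 of 9584 (3.82%) and 199 (2.08%), together 5.9%. Of the Lum-dominant cells 66 of 82 were themselves marker-bearing, but 1 of 3 on plate 468 and 1 of 6 on plate 469. Restricting both kinds to marker-bearing cells, on the 4 plates with enough of them, gave 497 of 9722 genes higher (5.11%) and 400 lower (4.11%), together 9.23%. Differences below are on the log2(CPM + 1) scale for marker-bearing members against all Lum-dominant cells, with that for marker-bearing cells of both kinds in parentheses, and it is said where all members or the latter missed the rule. Since the cells were chosen on Slc6a13 against Lum in these same counts, nothing here is a test. The shares over all genes given here stand beside each list count below.

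In all members, 5 of 17 solute carriers tested met the rule as higher and 0 as lower, with a median log2 difference of 1.73 against 0.31 over all genes tested. In marker-bearing members it was 7 of 19 and 0, with medians of 1.96 and 0.26, but 2 of the 7, Slc22a6 and Slc13a4, helped define those cells. Slc13a3, a dicarboxylate cotransporter, was at 1334, 860 and 1032 CPM in members on KO plates 043, 467 and 471 and at 1480, 524 and 872 CPM on WT plates 044, 468 and 469. In the Lum-dominant cells it was at 726, 463 and 340 CPM and at 330, 0 and 90.4 CPM, so the members were higher on all 6 plates, by 2.97 ± 3.10 (SD, n = 6 plates) on average (1.21). Slc1a3, the glutamate transporter GLAST, was higher by 2.1 ± 1.43 (1.48). The cystine-glutamate exchanger Slc7a11 was higher by 1.88 (0.61, short of the rule). Slc6a12 was higher by 4.62 ± 2.77 but missed the rule in all members and in marker-bearing cells of both kinds, at 4.26 and 2.97. The taurine transporter Slc6a6 was lower by 2.76, but was at -0.45 in all members and -1.51 in marker-bearing cells of both kinds, short of the rule in both.

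Restricted to marker-bearing cells of both kinds, 3 of 18 solute carriers met the rule and their median was 0.76 against 0.08 over all genes. There Slc22a6 was at 0.73, Slc13a4 at 0.87, Aldh1a2 at 0.51 and Igf2 at 0.54, and none of the 4 met the rule. For marker-bearing members against all Lum-dominant cells they were at 2.75, 2.56, 1.54 and 1.71, and for all members at 2.38, 2.18, 1.17 and 1.34, where Slc22a6 missed the rule. These 4 genes defined the marker-bearing cells, so the first 2 sets of values are partly set by that choice, and nothing is read from them. The comparison with both kinds marker-bearing also left out plates 468 and 469.

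The retinoid genes did not move as a group. Of 13 tested, 3 were higher and 0 lower by the rule in all members, with a median of 0.24, and 4 and 1 in marker-bearing members, with a median of 0.19 (-0.33). Crabp2, which carries retinoic acid to its receptors, was at 278, 222 and 392 CPM in KO members of plates 043, 467 and 471 and at 347, 330 and 231 CPM in WT members of plates 044, 468 and 469. The Lum-dominant cells had it at 95.8, 74.3 and 112 CPM and at 21.5, 0 and 0 CPM, lower on every plate. Cyp26b1, an enzyme that degrades retinoic acid, was at 307, 441 and 1082 CPM in members on KO plates and at 356, 180 and 160 CPM on WT plates. In the Lum-dominant cells it was at 200, 92.5 and 285 CPM and at 25.8, 0 and 0 CPM. The mean differences were 4.18 ± 3.18 for Crabp2 (2.01) and 3.89 ± 2.91 for Cyp26b1 (1.94). The retinoic acid-making Aldh1a1 was higher by 1.45 (1.12) and the receptor gene Rxra lower by 1.84 (0.89 lower, short of the rule), and neither met the rule in all members.

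**Figure D4:**
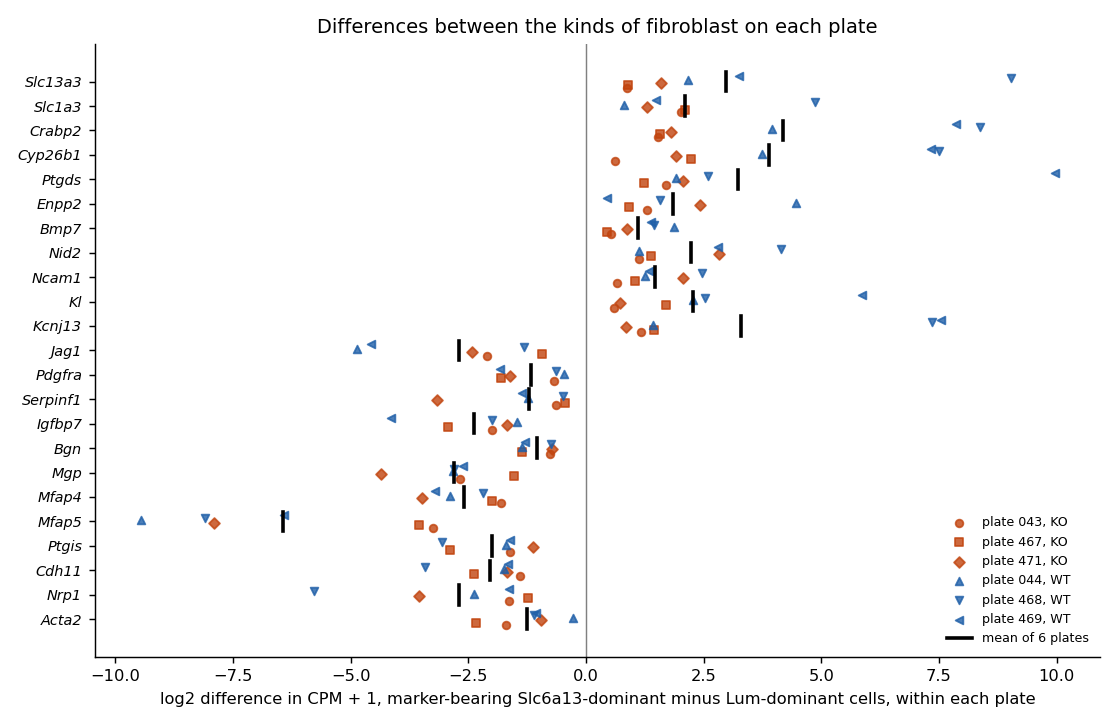
Difference in log2(CPM + 1) between marker-bearing Slc6a13-dominant members and all Lum-dominant fibroblasts (x axis) for 23 genes, with 1 symbol for each of the 6 plates and a bar for their mean. The genes from Slc13a3 to Kcnj13 lie above 0 on every plate and those from Jag1 to Acta2 below 0 on every plate. For Crabp2 and Cyp26b1 the WT plates 468 and 469, where Lum-dominant cells had 0 CPM, lie farthest out.

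A few matrix genes were lower in members, while the collagen genes Col1a2 and Col3a1 were nearly level. Of 29 interstitial matrix genes, 0 were higher and 4 lower in all members, with a median of -0.17. In marker-bearing members the same 4 were lower and Fmod was higher by 1.20 (0.59, short of the rule). Mfap5, a microfibril protein, was at 46.4, 33.3 and 0 CPM in members on KO plates 043, 467 and 471 and at 0, 2.17 and 0 CPM on WT plates 044, 468 and 469. The Lum-dominant cells had Mfap5 at 450, 402 and 237 CPM and at 705, 862 and 84.1 CPM, higher on all plates, and the mean difference was -6.44 ± 2.55 (-5.95). Mgp, an inhibitor of calcification in matrix, was lower in members by 2.80 ± 0.91 (2.70) and the microfibril-associated Mfap4 by 2.60 (2.35). The proteoglycan gene Bgn was lower by 1.04 ± 0.33 (1.01), at 742 to 1791 CPM in members and 1782 to 3440 CPM in Lum-dominant cells over the plates. Col1a2 and Col3a1 differed by 0.08 and -0.06. In the basement membrane list, 1 of 18 genes was higher and 3 were lower in all members. In marker-bearing members Nid2, a linker of laminin and collagen IV, was higher by 2.24 (1.50) and 2 of 19 were lower, the collagen IV chains Col4a3 by 4.81 (3.47) and Col4a4 by 3.39 (2.93).

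Single signalling genes differed in both directions, in small counts. Of 20 genes of the BMP, TGF-beta and Wnt pathways, 1 was higher and 0 lower in all members, and 3 and 2 in marker-bearing members. Over all genes 4.79% and 5.9% met the rule in either direction, so the count in all members is near that share. The same shares apply to the Notch and growth factor receptor lists below. The ligand gene Bmp7 was at 401, 394 and 301 CPM in members on KO plates and at 741, 431 and 478 CPM on WT plates, against 158 to 289 CPM in Lum-dominant cells, and was higher by 1.10 ± 0.56 (1.06). In all members its difference of 0.80 missed the rule. Bmp6 was higher by 2.36 (1.17) and Wnt6 by 2.04 (0.65), both short of the rule with both kinds marker-bearing. Wnt6 also missed the rule in all members. Id2, a target gene of BMP signalling, was lower by 2.25 (1.58), and by 1.01 in all members, where it missed the rule. Among 7 Notch pathway genes, Jag1 alone was lower in all members. In marker-bearing members that ligand gene was lower by 2.70 ± 1.65 (2.34) and the target gene Hes1 by 2.39 (1.80). Jag1 was at 9.23 to 131 CPM in members and 147 to 367 CPM in Lum-dominant cells over the plates. The receptor gene Pdgfra was lower by 1.17 ± 0.64 (1.13), 1 of 12 PDGF and growth factor receptor genes. Igf1 was lower by 1.24 (0.81, short of the rule), whereas the IGF carrier Igfbp2 was higher by 0.96, short of the rule.

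Prostaglandin D synthase, Ptgds, was at 1812, 3040 and 1827 CPM in members on KO plates and at 2230, 2676 and 2738 CPM on WT plates. In Lum-dominant cells it was at 559, 1300 and 437 CPM and at 593, 445 and 1.75 CPM. It was higher by 3.24 ± 3.32 (1.55), and the prostacyclin synthase Ptgis was lower by 2.00 (1.96). The Wnt-responsive transcription factor Lef1 was higher by 3.03 (2.70), and the forkhead factor Foxp2 was lower by 1.66 (1.67), but in all members both missed the rule, with 0 of 22 meningeal transcription factors meeting it. Foxc1 and Foxd1, forkhead factors of meningeal development, differed by 0.19 and 0.11. The junction protein gene Gja1 was higher by 1.59 (0.84, short of the rule), and the integrin subunit Itga8 and the receptor Nrp1 were lower, by 4.07 (3.90) and 2.70 (2.18).

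Immediate early genes, which cells switch on within minutes of stimulation or handling, leaned to the Lum-dominant side, by a count that moved with the choice of cells. Of 20 tested, 2 were lower in all members with a median of -1.50, 10 in marker-bearing members with a median of -2.23, and 4 with both kinds marker-bearing with a median of -0.83. In all 3 comparisons 0 were higher. Ier2 was lower on every plate, at 10.9 to 144 CPM in members and 154 to 636 CPM in Lum-dominant cells. Fos was lower by 2.48 ± 2.56 and Egr1 by 2.74 ± 2.36 in marker-bearing members, neither met the rule in all members, and with both kinds marker-bearing the values were -0.52, short of the rule, and -1.13.

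By size, the genes furthest above the Lum-dominant level in all members included Fbxo44 (3.98 in marker-bearing members, 4.02 with both kinds marker-bearing), Tsku (3.70 and 3.60), Wnk4 (3.79 and 2.50) and Hs3st1 (2.93 and 2.05). Tsku encodes the secreted proteoglycan tsukushi, Wnk4 a kinase that controls ion cotransport, and Hs3st1 a heparan sulphate sulphotransferase. Furthest below were Adamtsl2 (-6.24 and -4.98), a matrix protein of microfibrils, Inmt (-5.67 and -2.97), a methyltransferase, Adcy7 (-5.24 and -5.61), an adenylate cyclase, Plk2 (-4.51 and -3.68), a kinase, and Cygb (-6.39 and -1.49), the globin cytoglobin. Nos3, a nitric oxide synthase, was lower by 4.62 and 5.22. Inmt and Cygb missed the rule with both kinds marker-bearing. Wnk4, Cygb and Nos3 overlap genes on the other strand, and a strand setting for counting is not given.

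Markers of other cell types were checked beside these differences in the marker-bearing members. In their summed counts, the ependymal Ccdc153, Tmem212, Foxj1 and Rsph1, the endothelial Cldn5, Tek, Ly6c1, Kdr and Emcn, the astrocyte Aqp4 and Agt, the choroid plexus Ttr, Clic6, Otx2 and Prlr, and the pericyte Abcc9 and Higd1b were below 1 CPM each. Caps on Cldn5, Ccdc153, Tmem212 and Aqp4 were part of the rule. Other genes of these lists were present. The median summed level per cell over the 6 plates was 884 to 5250 CPM for the 10 pericyte markers, which include Vtn, 313 to 934 CPM for the 10 endothelial, 573 to 1462 CPM for the 8 astrocyte, 10.2 to 731 CPM for the 8 ependymal and 270 to 464 CPM for the 8 choroid plexus markers. Slc1a3 and Gja1 of the astrocyte list, Kl and Kcnj13 of the choroid plexus list and Vtn of the pericyte list were higher in marker-bearing members than in Lum-dominant cells by the rule. With both kinds marker-bearing, Gja1 and Vtn missed the rule, and Vtn also missed it in all members. The part of other cell types in these differences was not tested. Smooth muscle genes were present. Of the 12 in the list Actg2 alone was below 1 CPM, and the median of their summed level per cell was 1066 to 2359 CPM over the KO plates and 171 to 1329 CPM over the WT plates. Tagln had at least 100 CPM in 32 of 65 KO cells and in 6 of 24 WT cells.

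The comparison of KO with WT within the members used the same sums per plate. A gene met the size rule with a 2-fold mean difference and no overlap between the 3 KO and the 3 WT plates. In all members 407 of 9537 genes were higher in KO (4.27%) and 251 lower (2.63%), together 6.9%, and 10.8% of genes had plates that did not overlap. In marker-bearing members 532 of 9606 were higher (5.54%) and 151 lower (1.57%), together 7.11%, and 10.1% of genes tested had plates that did not overlap. The median gene was 0.30 higher in KO there, and 0.15 in all members. Of the genes higher in KO, 224 met the rule in both, which is 55.0% of those in all members and 42.1% of those in marker-bearing members. Of those lower, 63 did, or 25.1% and 41.7%.

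The genes with the largest differences in all members were largely those of the marker-poor cells, which were unlike each other in KO and WT. Slc47a1, Adamtsl3, Emb, Rspo3, Crispld1 and Ctxn3 had 0 counts in the KO members and were at least 4789-fold, 2671-fold, 2900-fold, 1161-fold, 1757-fold and 813-fold higher in WT members, against a floor of 3 counts over the group. In marker-bearing members their differences in log2(CPM + 1) were between -0.61 and 0.00. On the KO side, Kcnj8 differed by 5.53 in all members and 3.11 in marker-bearing members, Itga7 by 4.81 and 2.93, Sorbs2 by 4.81 and 2.13 and Inpp4b by 4.76 and 2.82, and none of these 4 met the rule in marker-bearing members. The values below are for marker-bearing members.

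None of the 5 markers of the cells differed by the rule. Among the genes tested in marker-bearing members, 0 of 17 solute carriers, 0 of 4 GABA transporter family genes and 0 of 8 Notch pathway genes met it in either direction. Over all genes 7.11% did, so with so few genes a count of 0 is near that share, and nothing is read from it. Slc6a13 differed by -0.15 and Slc22a6 by -0.29. In all members 7 of 21 solute carriers were lower in KO, among them Slc47a1 and Slc26a7 of the marker-poor WT cells, against 2.63% of all genes. There 1 of 8 Notch pathway genes, Rbpj, was higher, against 6.9% of all genes in either direction.

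The chemokine genes Ccl2 and Ccl7 were higher in KO, with reads in a minority of the cells. Ccl2, which attracts monocytes, was at 109, 96.3 and 68.3 CPM on KO plates 043, 467 and 471 and at 14.1, 0 and 0.366 CPM on WT plates 044, 468 and 469. It had a read in 14 of 65 KO cells and 2 of 24 WT cells. The neighbouring family member Ccl7 was at 160, 66.6 and 86.9 CPM in KO and at 0, 10 and 0 CPM in WT, with a read in 14 KO cells and 1 WT cell. The differences were 5.04 (SD over plates 0.34 in KO and 2.14 in WT) and 5.47 (0.64 and 2.00). Of 11 inflammation genes tested 3 were higher in KO, against 5.54% of all genes, with a list median of 0.81. In all members 2 of 10 were, Ccl2 and Ccl7, against 4.27% of all genes. The chemokine gene Ccl11 had 0 counts in KO and was at 37.6 CPM on WT plate 468 alone. Immediate early genes had a median of 1.24 in the same cells, against 0.30 over all genes. Of their differences 14 of 19 were positive, near the share over all genes, 6387 of 9606. The rule was met by 1 of them, Fosl2, against 7.11% of all genes in either direction. In all members the median was 0.54, against 0.15 over all genes, with 15 of 19 positive, against 5697 of 9537. There 1 was higher and 1 lower by the rule. The part of cell handling was not tested. The sums rest on 65 KO and 24 WT cells, and the part of that unequal number in calls for sparse transcripts was not tested.

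Wnt10a, a Wnt ligand gene, was at 60.5, 17.9 and 61.6 CPM on the KO plates and had 0 counts in WT, at least 125-fold higher in KO against 3 counts over the group. It had a read in 16 KO cells. Nedd9, an adaptor protein gene of focal adhesions that overlaps Gm32401 on the other strand, was at 27.7, 56 and 77.5 CPM on the KO plates and had 0 counts in WT, at least 130-fold higher, with a read in 19 KO cells. Mtap, an enzyme of methionine salvage, was at 29.6, 59.7 and 40.5 CPM in KO and at 0, 0 and 11.3 CPM in WT. Wnt10a, Nedd9 and Mtap all had WT plates with no count.

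Smooth muscle genes leaned to KO in the members as well. Tagln was at 221, 189 and 416 CPM on the KO plates and at 172, 32.8 and 15.4 CPM on the WT plates, a difference of 2.51, with a read in 54 of 65 KO cells and 12 of 24 WT cells. Des, the intermediate filament protein desmin, was at 90.1, 99.8 and 246 CPM in KO and at 32.5, 18.3 and 8.04 CPM in WT. Tpm2, a tropomyosin, was at 220, 209 and 324 CPM in KO and at 185, 60.7 and 91.8 CPM in WT. Of the 9 tested in the smooth muscle list 3 were higher by the rule, against 5.54% of all genes. All 9 differences were positive, against 6387 of 9606 over all genes, and the median was 1.70, against 0.30. In all members 6 of 10 met it, with a median of 2.18, against 4.27% and 0.15 over all genes. Myh11, 1 of these 6, had an upper limit in the rule that chose the cells. The sums of all members also hold the marker-poor KO cells, with a median Acta2 of 2195 CPM on plate 043 and 1585 CPM on plate 467. Marker-poor WT cells had Acta2 at up to 52.0 CPM. The part of the marker-poor cells in this count was not tested. The pericyte list did not lean to KO in marker-bearing members: its median summed level per cell was 884 to 5250 CPM over KO plates against 2893 to 4423 CPM over WT plates. Of 6 tested 0 were higher and 1, Anpep, was lower, against 5.54% and 1.57% of all genes, and nothing is read from so few genes.

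Of 28 interstitial matrix genes 2 were higher and 1 lower in KO, and of 17 basement membrane genes 0 met the rule, against 7.11% of all genes. Fibronectin, Fn1, was at 761, 773 and 1853 CPM on the KO plates and at 313, 52.4 and 662 CPM on the WT plates. Clu, the extracellular chaperone clusterin, was at 914, 374 and 1209 CPM in KO and at 160, 100 and 359 CPM in WT. Tnc, the matrix protein tenascin-C, differed by 2.92, the growth factor gene Pdgfa by 3.14 and the transcription factor gene Tfap2b by 3.29. In each of Fn1 and Clu the lowest KO plate was above the highest WT plate by a small margin, and in all members Fn1 missed the rule, at 0.69.

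Fewer genes were lower in KO. Spp1, the secreted phosphoprotein osteopontin, was at 165, 199 and 316 CPM on the KO plates and at 680, 1360 and 494 CPM on the WT plates. Pdgfra, the receptor for PDGF-A and a general fibroblast marker, was at 196, 167 and 147 CPM in KO and at 249, 599 and 428 CPM in WT. Kcne4, a potassium channel subunit, was at 0.472, 7.42 and 0.355 CPM in KO and at 107, 315 and 48.3 CPM in WT, with a read in 9 KO cells and in 5 WT cells. The BMP ligand gene Bmp5 was lower by 2.22. Id2 met the rule in opposite directions, as lower in KO in all members and as higher in KO in marker-bearing members. In all members Spp1 and Pdgfra missed the rule, at -1.45 and -0.99. The macrophage complement gene C1qa had 0 counts in KO and stood at 7.81, 140 and 2.92 CPM on the WT plates, where 1 cell held 90.4% of its counts, and it too missed the rule in all members.

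**Figure D5:**
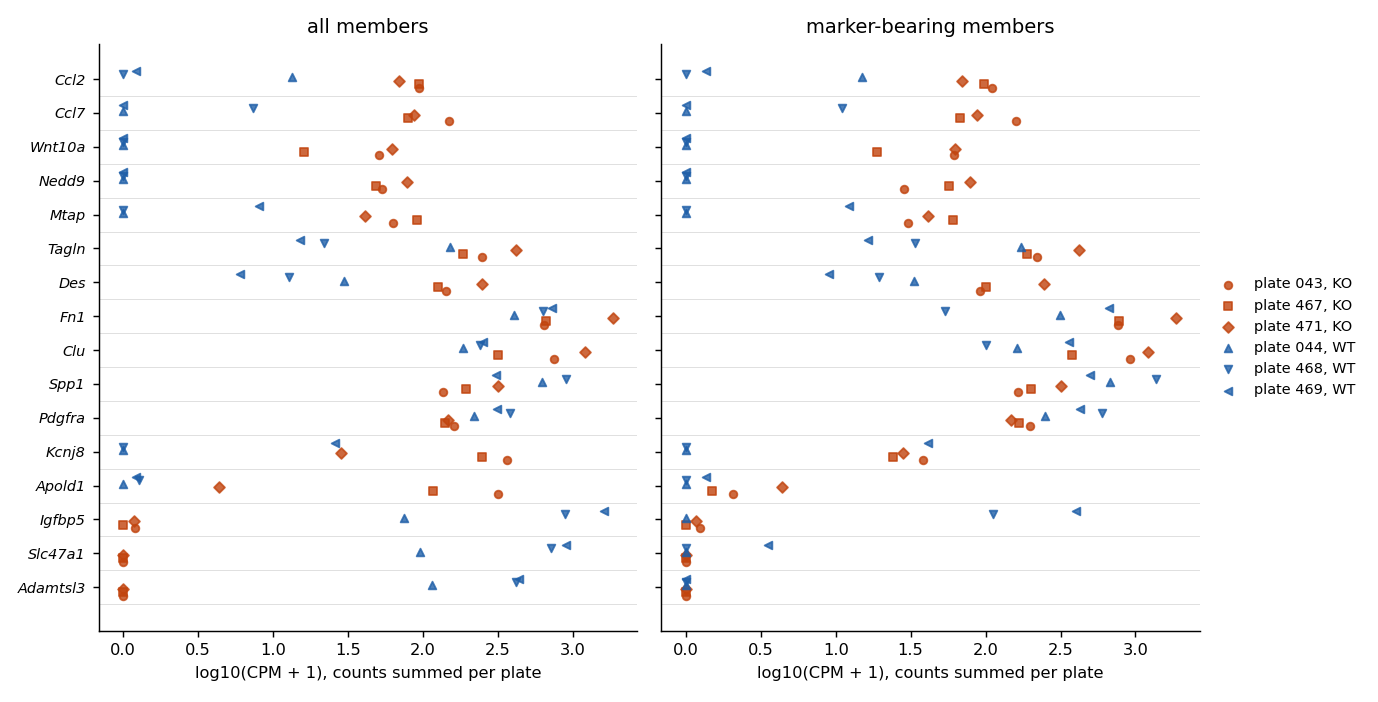
Level of 16 genes, as log10(CPM + 1) of counts summed per plate, in all members (left) and in marker-bearing members (right), with 1 symbol for each of the 3 KO and 3 WT plates. In the right panel the genes from Ccl2 to Clu have all KO plates above the WT plates, and Spp1 and Pdgfra have them below. Slc47a1 and Adamtsl3 separate the genotypes in all members but lie at or near 0 CPM in marker-bearing members.

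Within subsets of the plates the sizes differed. Between plates 043 and 044 alone the Ccl2 difference was 2.77 and the Ccl7 difference 7.19, and among the other 4 plates they were 6.19 and 4.58. The WT values rest on 24 marker-bearing cells, 8, 9 and 7 per plate, so 1 cell can carry a plate's value, as for C1qa and Notch3. Effects of Notch3 status, animal, plate and sorting cannot be told apart in this design.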

How the data were processed

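The authors deposited 1 table of counts (30950 entries by gene symbol, a column per cell), with whole numbers that sum to a different total in each of 2254 cells (49473 to 763059, median 291872). The tools named in the submitters' processing notes are the aligner TopHat2 (2.1.1), SAMtools (0.1.18) and, for counting, featureCounts of Subread (1.4.6-p5), with build GRCm38 (mm10). The annotation version, strand setting and cell filter are not given in the sources used here. All columns of cells were used (0 left out), and 0 columns were duplicates of another.

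Here 2252 cells with at least 50000 counts entered the rule. Counts were summed over the cells of a kind on each plate with at least 3 such cells, and scaled to CPM with TMM factors (edgeR 4.0.16, R 4.3.3; 0.902 to 1.05 in members). Differences are of log2(CPM + 1) and understate those of low genes. Genes were tested by size alone: a mean of at least 10 CPM, a read in 20% of the cells of 1 group, at least 2-fold, and plates that do not overlap (KO against WT) or that share a direction (members against Lum-dominant cells). No p-value was computed, since each genotype is 1 sample. Shares of cells have exact Clopper-Pearson 95% intervals, which cover counting error only. Folds against 0 use a floor of 3 counts over the group, which also covers counting error only, since PCR reads without molecular identifiers are not independent molecules.

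Entries were matched to GENCODE M21 symbols (27885, 90.1%) for positions and exon length. Promoter windows are from RefSeq (GRCm38.p6).

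Named genes were Notch3, the markers, the rule's genes, the 15 largest and smallest differences against Lum-dominant cells and the 10 between KO and WT, up to 4 of the most abundant members and 2 of the largest differences per list, and the 15 most abundant genes. Members and lists were chosen with earlier results of these data known. Python 3.11.15, numpy 2.4.6, pandas 2.3.3, scipy 1.17.1 and matplotlib 3.10.9 were used. Alternatives covered the cell rule, depth, normalization, pseudocount, level and detection filters, cells per plate, subsets of plates and each plate left out. Some genes are not reported here.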

Additional observations from a re-analysis of the deposited data

Results flagged for a closer look

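In 2 flagged genes the difference between Slc6a13-dominant and Lum-dominant fibroblasts pointed one way on every KO plate and the other way on every WT plate. How many of all genes share this pattern of signs is not given here, so it is not to be read as rare. C2cd3, a gene of the centriole that overlaps Gm10603 and Ppme1 on the other strand, was higher in Slc6a13-dominant cells by 3.56 on the log2(CPM + 1) scale as a mean over KO plates and differed by -2.95 over WT plates. Gpc2, a cell surface heparan sulphate proteoglycan, differed by -2.58 over KO plates and by 4.71 over WT plates. The difference between genotypes was not tested, and the WT plates had 15 Lum-dominant cells in all.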

How the results depend on the processing

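The difference in member share between KO and WT was 3.73 points, and it was 1.60 with summed Acta2, Tagln and Rgs5 below 500 CPM and 6.36 on plates 043 and 044 alone. With each plate left out in turn it ran from 2.75 to 5.13 points, or 3.10 to 4.55 for marker-bearing members. The share of members among fibroblasts, KO minus WT, ran from -21.3 to -8.29 points. For marker-bearing members among marker-bearing members plus all Lum-dominant cells, it was -11.1 points on all plates. With plates left out that ran from -17.2 to -4.56. KO against WT, 658 genes met the size rule (407 higher, 251 lower). Requiring at least 500 CPM of the dominant gene gave 155 lower, and marker-bearing members 151 lower. A mean of at least 50 CPM gave 252 (145 and 107) and detection in 50% of cells 217 (153 and 64). Fewer plates loosen the rule by construction: plates 043 and 044 alone gave 2892 (1689 and 1203), or 2871 (1656 and 1215) in marker-bearing members, and the other 4 plates 2027 (1152 and 875), or 2211 (1544 and 667). Leaving out each plate gave 1007 to 1659 (654 to 974 and 348 to 685), or 971 to 1956 (744 to 1414 and 227 to 542) in marker-bearing members.

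Against Lum-dominant cells, 458 genes met the rule (317 higher, 141 lower). Requiring 500 CPM of the dominant gene gave 699 with 342 lower, the cap on Acta2, Tagln and Rgs5 gave 705 with 260 lower, marker-bearing members 199 lower, and marker-bearing cells of both kinds 897 (497 and 400). A mean of at least 50 CPM gave 256 with 156 higher, detection in 50% of cells 239 (149 and 90) and at least 5 cells per plate 230 lower. Plates 043 and 044 alone gave 1976 (1101 and 875), or 2248 (1216 and 1032) in marker-bearing members, and the other 4 plates 1123 (849 and 274), or 1160 (790 and 370). Leaving out each plate gave 572 to 753 (353 to 560 and 167 to 219), or 711 to 828 (373 to 552 and 239 to 338) in marker-bearing members. The causes of the changes other than fewer plates or fewer genes tested were not tested.

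Of the 10 largest differences in each direction between KO and WT, 4 genes lower in KO in all members changed sign in settings without marker-poor cells. Igfbp5 did so in 1 setting alone. In the summed counts of marker-bearing members, Slco4a1, Slc26a7 and Slc4a10 were at 0.0346, 0.138 and 1.70 CPM. Their positive values thus lie near 0 CPM, and no direction is read from them. On the plate subsets and with plates left out, all members kept the direction, and the reversed values are of marker-bearing members. Igfbp5 was at 0.28 in marker-bearing members on plates 043 and 044, and at -4.97 on all plates. Slc26a7 was at 0.26 with 500 CPM of the dominant gene, at 0.25 in marker-bearing members and at 0.38 in those on plates 467, 468, 469 and 471. With plates left out it was at -8.23 to -6.92 in all members and at 0.00 to 0.38 in marker-bearing members. Slc4a10 was at 1.05 with 500 CPM of the dominant gene, and in marker-bearing members at 1.25, at 1.56 on those 4 plates and at 0.62 on plates 043 and 044. With plates left out it was at -8.25 to -6.81 in all members and at 0.33 to 1.86 in marker-bearing members. Slco4a1 was at 0.084 with 500 CPM of the dominant gene, and in marker-bearing members at 0.0785 and at 0.12 on those 4 plates. With plates left out it was at -7.18 to -5.80 in all members and at 0.00 to 0.12 in marker-bearing members. Outside these largest differences, Id2 met the rule as lower in KO in all members and as higher in KO in marker-bearing members.

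The subset of marker-bearing cells and its alternatives were chosen after seeing the data. No paired analysis was possible because replicates carry no numbers shared between the genotypes. The main limits are 24 marker-bearing WT cells, 15 WT Lum-dominant cells, no named animal and undescribed sort gates.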
